A study of Mus musculus with 12 samples.

Results

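The collagen, laminin and integrin genes of mouse, with fibronectin (Fn1), Sparc and the nidogens Nid1 and Nid2, were followed through Neurog1 induction in embryonic stem (ES) cells. Membership was set by gene symbol. The symbols gave 80 genes of the 18193 that were represented by a probe set with a single symbol: 42 collagens, 14 laminin, nidogen, fibronectin and Sparc genes, and 24 integrins. The 80 genes had 164 probe sets, and each gene was represented by its brightest. Of the 80 genes, 43 were bright enough to be tested, namely 19 collagens, 9 of the laminin to Sparc class and 15 integrins. The other 37 stayed below the filter on dim signals. The direction and size of every change below are those of transcript signals, and protein was not measured.

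Collagens are triple-helical proteins that assemble either into fibrils or, as collagen IV, into the sheet of the basement membrane. Laminins are trimers of an alpha, a beta and a gamma chain that form a second sheet, which nidogens link to collagen IV. Integrins are receptors made of 1 alpha and 1 beta chain, and the pair decides which matrix protein a cell can hold. ES cells and the extra-embryonic endoderm that can arise beside them are known producers of laminin and collagen IV, and developing neurons change their integrins as they leave an epithelium.

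All cells were mouse ES cells of 129P2/OlaHsd origin (E14, Ainv15) with a tetracycline-inducible Neurog1 transgene, a proneural transcription factor, in serum-containing medium with LIF, puromycin and G418. The 4 groups were cells without doxycycline, taken from maintenance culture (uninduced, 0 h), and cells given 1 ug/ml doxycycline for 24, 48 or 72 h. Each group held 3 Affymetrix arrays, described by the labels as biological replicates, and the labels name no second clone. Because uninduced cells were taken at 0 h alone, effects of Neurog1, of the drug and of days in culture cannot be told apart.

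On the 12 arrays the median MAS5 signal, a linear fluorescence intensity, lay between 19.5 and 32.8. Neurog1 gave 465 to 1152 on the 9 induced arrays, against 4.53 to 18.7 on the 3 uninduced arrays. All 10 markers of undifferentiated ES cells exceeded the array median on each uninduced array, and at 72 h their summed signal was 3152 to 4442, against 40757 to 47932 in uninduced cells. The summed signal of 12 neuronal markers was 32531 to 33232 at 72 h, against 4243 to 5027 in uninduced cells. The first 24 h replicate stood apart, with correlations of 0.787 to 0.812 (log2 signals of the genes that passed the filter) with the other 24 h arrays, against at least 0.961 within each other group. On that array 9 of the 43 tested members lay more than 1 log2 unit above both other 24 h arrays, and 2 lay as far below. The arrays held RNA of whole cultures, in which fewer cells of a type and less RNA per cell cannot be told apart.

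Differences were tested with limma on log2(signal + 16), a scale that understates the change of dim genes, over the 11806 genes that passed the filter. They are given as log2 difference ± SE with n = 3 arrays per group, and adjusted p under 0.05 made a call. After 24 h, 3 of the 43 tested members were called, 2 higher and 1 lower, which is 6.98% of them, against 11.3% of all genes tested (8.12% called higher and 3.18% called lower). After 48 h, 12 members were higher and 3 lower, or 34.9%, against 36.6% of all genes (22.6% higher and 14% lower). After 72 h, 10 were higher and 9 lower, or 44.2%, against 43.9% of all genes (25.3% higher and 18.6% lower). As a set the members were thus called about as often as genes in general, and no total was particular to them. In all 26 members were called at 1 or more times against uninduced cells, 17 higher and 9 lower, and 0 in both directions. The share of all genes called at 1 or more times was not computed, so these counts describe the members alone.

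Of the 19 collagens tested, 1 was higher and 0 lower at 24 h, 8 and 0 at 48 h, and 7 and 0 at 72 h. Other settings did call collagens lower. Col18a1 was called lower at 72 h without the first 24 h array, with the mean of its probe sets, with the 6 arrays alone and with array weights. Col6a4 was called lower at 48 and 72 h without the first uninduced array and at 72 h with array weights. With no filter on dim signals Col10a1 was called lower at 48 h and Col6a5 at 72 h. The median log2 difference of the collagens was 0.30, 0.81 and 0.48 at the 3 times, beside 0.10, 0.12 and 0.09 over all genes tested. Of the 9 laminins, nidogens, fibronectin and Sparc, 0 were higher and 1 lower at 24 h, 1 and 2 at 48 h, and 0 and 4 at 72 h, with medians of -0.28, -0.48 and -0.47. Of the 15 integrins, 1 was higher and 0 lower at 24 h, 3 and 1 at 48 h, and 3 and 5 at 72 h, with medians of 0.09, 0.13 and -0.02. Whether the families differed from one another was not tested.

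**Figure D1:**
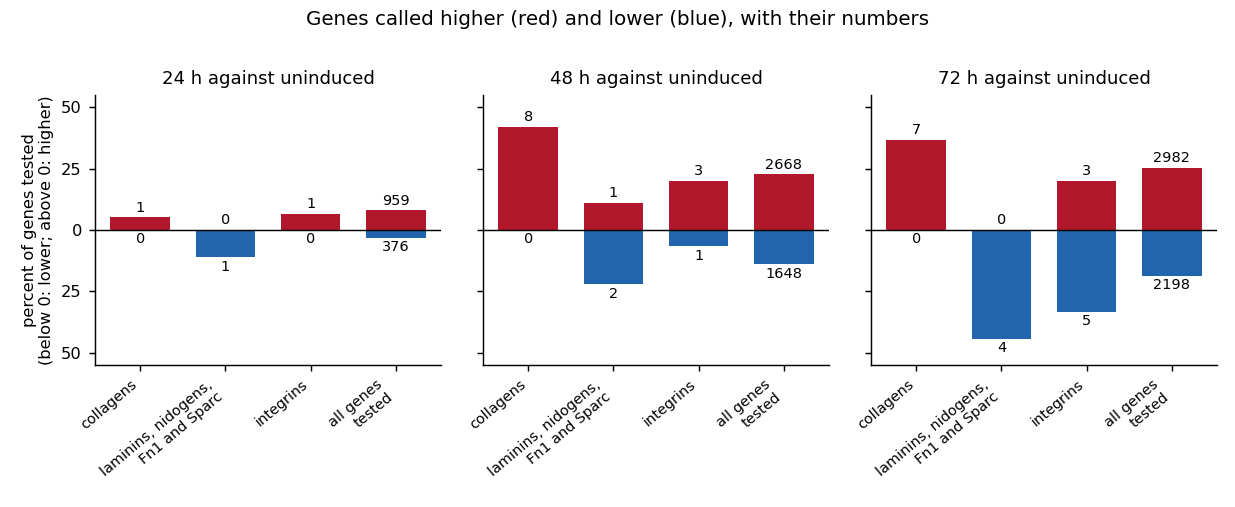
Percent of tested genes called higher (red, upward) and lower (blue, downward) against uninduced cells after 24, 48 and 72 h, for 19 collagens, 9 laminin, nidogen, fibronectin and Sparc genes, 15 integrins and all 11806 genes tested. Numbers on the bars are genes called. At the settings plotted, 0 collagens were called lower at the 3 times, while 4 of the 9 genes of the laminin to Sparc class were called lower at 72 h.

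These totals moved with single arrays and with the scaling. Without the first 24 h replicate, 8, 25 and 25 members were called at 24, 48 and 72 h, and all 37 calls made against uninduced cells with it were among them. Without the first uninduced array 1 member was called at 24 h, and without the second 72 h array 12 were called at 72 h. Quantile normalization shifted the median of all genes from 0.12 to -0.04 at 48 h and from 0.09 to -0.09 at 72 h. It gave 9 members higher and 7 lower at 48 h, and 6 higher and 11 lower at 72 h. No collagen was called lower, but Col1a2, Col4a1 and Col5a1 lost their 48 h calls (adjusted p 0.0642 to 0.0771). Col11a1, Col16a1 and Col27a1 lost their 72 h calls (adjusted p 0.0989 to 0.138).

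Collagen IV, the network-forming collagen of basement membranes, rose in all 3 of its tested chains at 48 and 72 h. Col4a1 and Col4a2 encode the chains of the common collagen IV trimer. Col4a1 had signals of 70.4, 129 and 105 on the uninduced arrays, 368, 124 and 120.0 at 24 h, 397, 203 and 370.1 at 48 h, and 395, 287 and 1047 at 72 h. Every array at 48 and 72 h lay above the 3 uninduced arrays, whereas at 24 h the first array was high and the other two were within or near the uninduced range. The log2 difference was 1.51 ± 0.50 at 48 h (adjusted p = 0.0305) and 2.15 ± 0.50 at 72 h (adjusted p = 0.00366). The 48 h call was lost without either of 2 of the 48 h arrays (adjusted p = 0.105 without the first and 0.091 without the third array) or either of 2 uninduced arrays (adjusted p = 0.113 without the first and 0.068 without the third array).

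Col4a2 gave 42.6, 41.6 and 59.9 in uninduced cells, 232, 36.6 and 32.9 at 24 h, 275, 208 and 211 at 48 h, and 191, 159 and 392 at 72 h. The pattern over arrays was that of Col4a1, with the first 24 h array and the third 72 h array the highest of their groups. Its difference was 1.95 ± 0.52 at 48 h (adjusted p = 0.0107) and 1.95 ± 0.52 at 72 h (adjusted p = 0.00868). These genes lie head to head on chromosome 8 of GRCm38.p6 in the RefSeq annotation, on opposite strands, with start sites 21 bases apart. Their promoter windows, 250 bases before to 50 bases after the start, overlap by 78 bases.

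Col4a5 encodes a chain of the collagen IV trimers found in specialised basement membranes. Its signals were 6.06, 21.3 and 13.9 in uninduced cells and 17.5, 20.3 and 11.98 at 24 h, then 98.2, 77.6 and 88.7 at 48 h and 71.8, 54.9 and 49.9 at 72 h. The 3 arrays of each group lay close together at 48 and 72 h and none overlapped with uninduced cells. The difference was 1.84 ± 0.23 at 48 h (adjusted p = 7.9e-05) and 1.35 ± 0.23 at 72 h (adjusted p = 0.00054), and it was called in every alternative in which the gene was tested. Col4a5 passed the filter only through its 48 and 72 h arrays. Its second probe set, dimmer, moved less, by 0.46 and 0.28. Col4a6, whose start site lies 1343 bases from that of Col4a5 on the opposite strand of chromosome X, stayed at 6.21 to 28.7 on all 12 arrays and was not tested. Col4a3 and Col4a4, the other partners of Col4a5, also stayed below the filter, at 0.534 to 26.1 and 1.26 to 11.6.

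Among the 7 fibrillar collagens tested, 3 were higher at 48 h and 3 at 72 h, all from dim signals. Col5a1 and Col5a2 encode the chains of collagen V, which starts and sizes collagen fibrils. Col5a1 gave 62.1, 54.5 and 73.9 in uninduced cells, 93.2, 67.2 and 67.2 at 24 h, 128, 141 and 137 at 48 h, and 90.2, 92.8 and 99.5 at 72 h. The 48 h arrays were the highest and overlapped with no other group, and the difference was 0.93 ± 0.20 (adjusted p = 0.00303), with 0.48 ± 0.20 at 72 h (adjusted p = 0.0703). The mean of its 3 probe sets gave 0.34 at 48 h (adjusted p = 0.188). Col5a2 gave 13.2, 19.4 and 18.3 in uninduced cells, 35.5, 27.3 and 13.7 at 24 h, 41.5, 48.3 and 46.5 at 48 h, and 57.8, 43.2 and 38.4 at 72 h. It was higher by 0.90 ± 0.23 at 48 h (adjusted p = 0.00928) and by 0.91 ± 0.23 at 72 h (adjusted p = 0.00683), with no array of either group overlapping the uninduced ones, and its second probe set moved the same way (0.98 and 1.32). Col5a2 passed the filter only through its 48 and 72 h arrays.

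Col1a2, the second chain of collagen I, was called at 48 h, with 80.8, 113 and 63.3 at 48 h against 20.6, 44.5 and 16.8 in uninduced cells (1.26 ± 0.42, adjusted p = 0.0322). At 72 h the third array, at 19.1, fell among the uninduced values while the other two were at 101 and 81.3, and without that array Col1a2 was called at 72 h too (1.36, adjusted p = 0.0076). Its partner Col1a1 did not pass the filter and ranged from 2.42 to 40.2. Col11a1 and Col27a1, fibrillar collagens best known from cartilage, were called at 72 h alone, by 0.72 ± 0.26 (adjusted p = 0.0372) and 1.12 ± 0.37 (adjusted p = 0.027). Col2a1, the main fibrillar collagen of cartilage, was not called at any time, at 47.9 to 62.4 at 72 h against 24.6 to 60.0 in uninduced cells. Col11a1, Col27a1 and Col1a2 each lost their call when 1 of several single arrays was left out, with adjusted p up to 0.161, 0.125 and 0.117.

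Of the collagens that sit on fibrils or in the basement membrane zone, Col9a1 moved first. It gave 17.2, 11.2 and 4.10 in uninduced cells, 40.6, 65.4 and 62.8 at 24 h, 46.9, 50.1 and 52.4 at 48 h, and 33.1, 23.5 and 11.8 at 72 h. It was higher by 1.44 ± 0.26 at 24 h (adjusted p = 0.00422) and 1.32 ± 0.26 at 48 h (adjusted p = 0.00194), and at 72 h the arrays overlapped again. Its other probe set, which stayed below the filter, did not move with it (0.01 at 24 h and -0.11 at 48 h), and the mean of both was not called. Col9a1 passed the filter only through its 24 and 48 h arrays. Col15a1, a collagen of the basement membrane zone, was called at 48 h alone, with 44.6, 52.0 and 31.9 against 18.6, 1.73 and 1.72 in uninduced cells (1.39 ± 0.34, adjusted p = 0.00608). It passed the filter only through its 48 h arrays. Col16a1, another fibril-associated collagen, was called at 72 h alone, at 59.6 to 74.6 against 3.53 to 47.8 in uninduced cells (1.12 ± 0.37, adjusted p = 0.0267), a call lost without the first or second 72 h array or the third uninduced array. Col18a1, the precursor of endostatin and a bright member of the family, was not called, with 476, 367 and 518 at 72 h against 939, 943 and 684 in uninduced cells (-0.89 ± 0.40, adjusted p = 0.0898). Without the first 24 h array, where Col18a1 stood at 1889, the same 72 h difference had an adjusted p of 0.00202. Its second bright probe set gave -0.62 at 48 h and -1.47 at 72 h, and the mean of both was called lower at 72 h (-1.18, adjusted p = 0.0232).

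The other collagens tested, Col5a3, Col6a2, Col6a4, Col7a1, Col13a1 and Col22a1, were dim and not called. Col6a2, a chain of the beaded filaments of collagen VI, gave 65.4, 62.8 and 55.6 at 48 h against 39.2, 30.2 and 38.1 in uninduced cells, without overlap (0.58 ± 0.23, adjusted p = 0.0652). The adjusted p for Col6a2 was 0.0282 without the first 24 h array. Col6a4 gave 6.41, 4.65 and 2.86 at 72 h against 0.895, 41.2 and 63.1 in uninduced cells (-1.04 ± 0.44, adjusted p = 0.0744). Its first uninduced array was the lowest of the 12, and without it the difference was -1.71 (adjusted p = 0.000752).

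**Figure D2:**
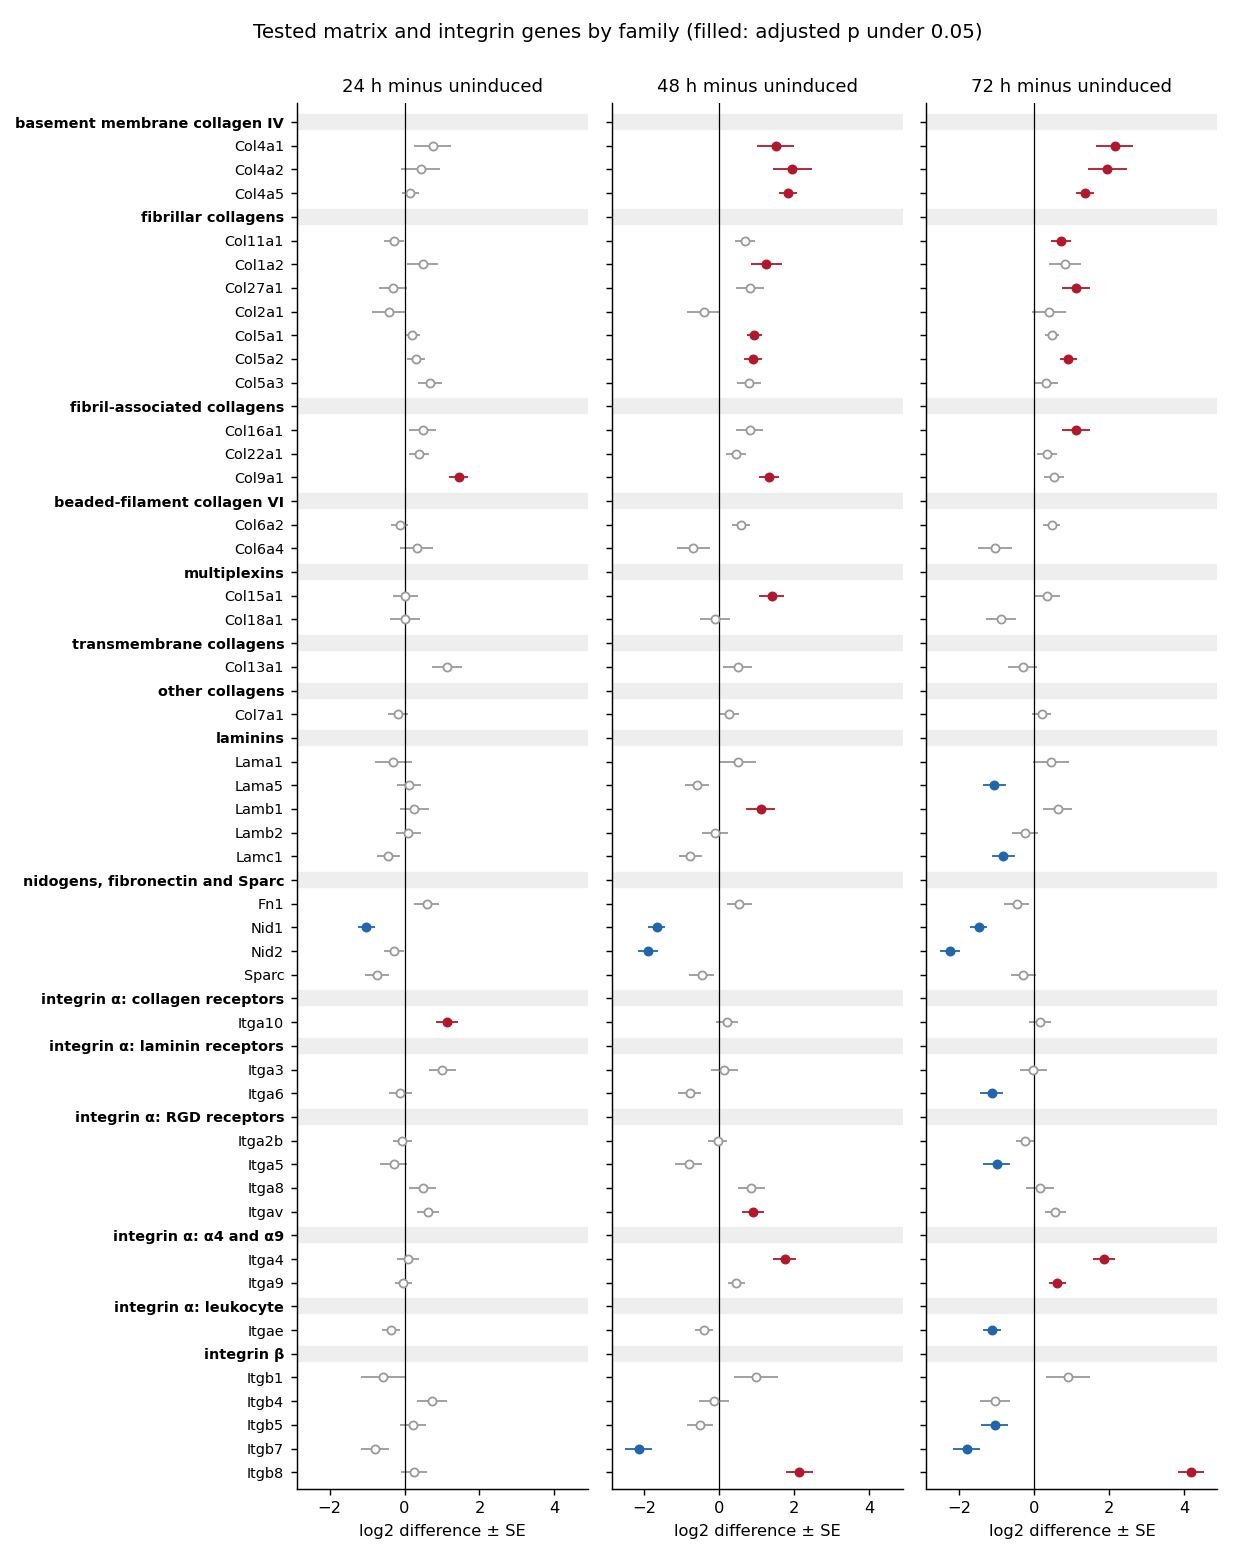
Log2 difference ± SE (limma, log2(signal + 16), n = 3 arrays per group) of the 43 tested members at 24, 48 and 72 h against uninduced cells, in families. Filled points were called higher (red) or lower (blue), and open grey points were not called. Collagen IV chains lay at 1.35 to 2.15 at 48 and 72 h, Itgb8 reached 4.19 at 72 h, and Nid1 and Nid2 lay at -1.48 and -2.25 there.

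The chains of laminin did not move together. Lamb1 and Lamc1 encode the beta and gamma chains shared by the main embryonic laminins, Lama1 the alpha chain of early basement membranes, and Lama5 the alpha chain of the laminin that is widely used to support pluripotent cells. Lama5 gave 255, 174 and 178 in uninduced cells, 398, 184 and 140.2 at 24 h, 131, 133 and 116 at 48 h, and 95.9, 86.2 and 80.1 at 72 h. It was lowest at 72 h, with no overlap, and was lower by 1.06 on the log2 scale (-1.06 ± 0.31, adjusted p = 0.0156). Its second bright probe set gave -1.03. The call was lost without the first uninduced array (adjusted p = 0.0692).

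Lamc1 gave 519, 446 and 284 in uninduced cells, 424, 285 and 211 at 24 h, 236, 214 and 239.6 at 48 h, and 191, 180.0 and 311 at 72 h. The third 72 h array lay above the lowest uninduced array, so the groups overlapped, and the call at 72 h (-0.83 ± 0.31, adjusted p = 0.0444) was lost in 10 of 24 alternatives. Lamb1 gave 325, 483 and 454 in uninduced cells, 539, 434 and 539.8 at 24 h, 867, 821 and 1049 at 48 h, and 463, 410.2 and 1425 at 72 h. It was higher by 1.10 ± 0.38 at 48 h (adjusted p = 0.0387), with 3 arrays above all uninduced ones, and at 72 h only the third array stood above the uninduced range. The 48 h call of Lamb1 was lost when any 1 of the 48 h or uninduced arrays was left out (adjusted p 0.06 to 0.137). Lama1 was not called, at 174, 105 and 509 at 72 h against 176, 146 and 136 in uninduced cells (0.45 ± 0.48, adjusted p = 0.48). Lamb2, the beta chain of synaptic and vascular laminins, was dim and not called, and Lama2, Lama3, Lama4, Lamb3 and Lamc3 stayed below the filter.

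Both nidogens, the linkers between the laminin and collagen IV sheets, fell. Nid1 gave 528, 483 and 469 in uninduced cells, 236, 272 and 203 at 24 h, 138, 142 and 154 at 48 h, and 171, 124 and 215 at 72 h. It was the only one of the 43 members called lower at 24 h, and no induced array reached the lowest uninduced value. The difference was -1.02 ± 0.23 at 24 h (adjusted p = 0.0122), -1.67 ± 0.23 at 48 h (adjusted p = 0.000124) and -1.48 ± 0.23 at 72 h (adjusted p = 0.000212). Its second bright probe set gave -1.53, -1.21 and -1.35. The 24 h call was lost without the first uninduced array (adjusted p = 0.0544), with the 6 arrays alone (0.105) and without the 4 arrays numbered 3 (0.122). The 48 and 72 h calls were kept in every alternative.

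Nid2 fell later. It gave 701, 666 and 751 in uninduced cells and 638, 671 and 454 at 24 h, then 122, 192 and 228 at 48 h and 134, 110.1 and 169 at 72 h. The 24 h arrays overlapped with uninduced cells, and the 48 and 72 h arrays were all far below them. The difference was -1.91 ± 0.26 at 48 h (adjusted p = 0.000134) and -2.25 ± 0.26 at 72 h (adjusted p = 2.71e-05), and these calls were kept in every alternative.

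Fibronectin and Sparc, a collagen-binding secreted glycoprotein, were bright and were not called at any time. Fn1 gave 1251, 1138 and 738 in uninduced cells, 2269, 1482 and 1077 at 24 h, 1364, 1736 and 1362 at 48 h, and 936, 886 and 466 at 72 h. The 48 h arrays were all above the uninduced ones and the 72 h arrays overlapped them (0.53 ± 0.33, adjusted p = 0.23, and -0.47 ± 0.33, adjusted p = 0.27). Sparc gave 1129, 1195 and 1518 in uninduced cells, 1103, 639 and 613 at 24 h, 998, 723 and 1039.6 at 48 h, and 749, 832 and 1757 at 72 h. Sparc was below the uninduced range on all 6 arrays at 24 and 48 h and on 2 of 3 arrays at 72 h, with the third 72 h array the highest of all 12. With the first 24 h and the third 72 h array left out, Sparc was called lower at 24, 48 and 72 h (-1.002, -0.48 and -0.67). In that fit Fn1 was called higher at 48 h (0.53, adjusted p = 0.0295), as with the 6 arrays alone (0.0379) and with array weights (0.0322). At 24, 48 and 72 h the second bright probe set of Fn1 gave -0.05, 0.21 and -0.37, and that of Sparc -0.30, -0.57 and -0.09.

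The third 72 h array also held the highest signals of Col4a1, Col4a2, Lama1 and Lamb1 among the 12 arrays. On it Col4a1, Lama1, Lamb1 and Sparc lay more than 1 log2 unit above both other 72 h arrays, and Col13a1 and Col1a2 as far below. Markers of primitive and parietal endoderm, an extra-embryonic cell type that makes much collagen IV, laminin and Sparc, were also highest there as a sum. The summed signal of the 17 markers on the array was 280.1, 273 and 489 in uninduced cells, 905, 354 and 771 at 24 h, 1185, 649.9 and 1383 at 48 h, and 794, 702 and 2504 at 72 h. On the first 24 h array the marker sum, Col4a1, Col4a2 and Sparc were each the highest of the 24 h arrays. The second 48 h array held the lowest marker sum and the lowest Col4a1, Col4a2, Lamb1 and Sparc of its group. On the third 24 h array the marker sum exceeded every uninduced value and Lamb1 lay above its uninduced range. There Col4a1 lay within the uninduced range and Col4a2 and Sparc below theirs. At 72 h 8 of the 12 tested markers were called higher and 0 lower, at 48 h 5 and 0, and at 24 h 1 and 0. Over all genes tested, 25.3% were called higher at 72 h, 22.6% at 48 h and 8.12% at 24 h. The fibroblast and feeder marker list also had its highest sum on the third 72 h array, at 8872, against 6810 and 6228 on the others at 72 h. The neuronal list did too, by a small margin, at 33232 against 32531 and 33053.

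Srgn, a proteoglycan core protein of parietal endoderm, stood at 96.0, 88.5 and 903 at 72 h, Dab2, an endocytic adaptor, at 125, 116 and 438, Cubn, an endocytic receptor, at 71.1, 60.1 and 244, and Sox17, an endodermal transcription factor, at 45.1, 25.9 and 219. All 4 were highest on the third array. Gata4 did not pass the filter, at 14.0 to 46.6 on the 9 induced arrays against 3.38 to 19.7 in uninduced cells, and Afp, Apoa1 and Thbd were near the floor, at 0.78 to 28.8 over the 12 arrays. With both arrays that stood apart left out, Col4a1, Col4a2 and Col4a5 were still called higher at 48 and 72 h. With the 4 arrays numbered 3 left out, Col4a1 was called at neither time (adjusted p = 0.101 and 0.052). In that fit Col4a2 was called at 48 h but not at 72 h (adjusted p = 0.0697), and Col4a5 kept both calls. The part of such cells in the changes of these genes was not tested.

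**Figure D3:**
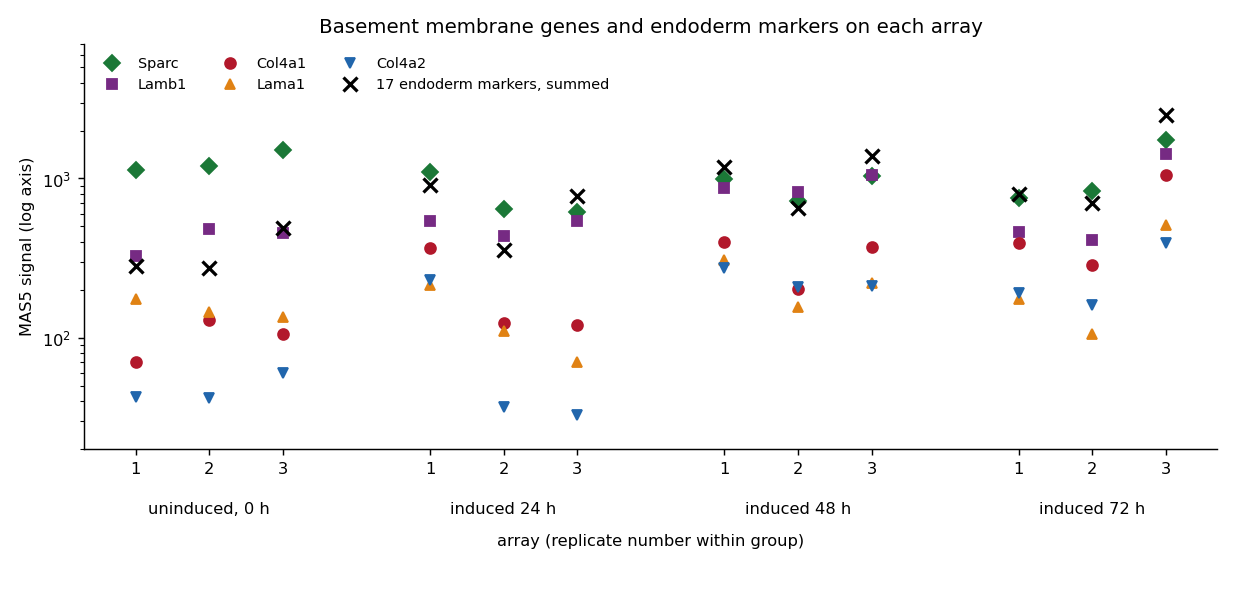
MAS5 signals (log axis) of Sparc, Lamb1, Col4a1, Lama1 and Col4a2 on each of the 12 arrays, with the summed signal of 17 markers of primitive and parietal endoderm (black crosses). Arrays are grouped by time, and numbers are replicate labels without order. The third 72 h array has the highest value of each series, with 2504 for the marker sum and 1047 for Col4a1.

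Integrins moved in both directions, and the largest change among all 43 members was the rise of Itgb8. Its product pairs with the alpha-v chain and is known for releasing active TGF-beta from its latent complex. Itgb8 gave 6.23, 11.6 and 0.731 in uninduced cells, 4.30, 22.4 and 6.14 at 24 h, 125, 92.6 and 41.1 at 48 h, and 342, 351 and 458 at 72 h. The uninduced and 24 h signals lay below their array medians, the 48 h arrays were all above them, and the 72 h arrays were all above the 48 h arrays. The difference was 2.14 ± 0.35 at 48 h (adjusted p = 0.000496) and 4.19 ± 0.35 at 72 h (adjusted p = 1.81e-06), and both calls were kept in every alternative. The 72 h value was 2.67 with a pseudocount of 64 and 6.14 with a pseudocount of 1.

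Itgav, the alpha-v chain itself, gave 248, 435 and 290.0 in uninduced cells, 318, 625 and 615 at 24 h, 527, 654 and 643 at 48 h, and 513, 477 and 439.8 at 72 h. It was called at 48 h alone (0.91 ± 0.29, adjusted p = 0.0263), although its 72 h arrays also lay above all uninduced ones. The 48 h call was lost without the second or the third 48 h array or the first or the third uninduced array (adjusted p 0.0775 to 0.109). It was also lost without the 4 arrays numbered 3 (adjusted p = 0.21), and the mean of its probe sets gave 0.28 (adjusted p = 0.358). Itgb5, another partner of alpha-v and a vitronectin receptor chain, went the other way, with 71.1, 55.7 and 50.9 at 72 h against 111, 185 and 132 in uninduced cells (-1.06 ± 0.35, adjusted p = 0.0273). Its 3 other probe sets also gave negative differences, from -0.33 to -0.91. The call for Itgb5 was lost with the mean of its probe sets (adjusted p = 0.102) and without the second or the third 72 h array or the second or the third uninduced array.

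Itga4 encodes the alpha-4 chain, a receptor for fibronectin and VCAM-1 that is known from migrating neural crest and blood cells. It gave 3.40, 2.21 and 13.1 in uninduced cells, 2.77, 19.5 and 2.56 at 24 h, 58.4, 66.1 and 46.8 at 48 h, and 85.3, 60.2 and 47.6 at 72 h. Its signals at 48 and 72 h overlapped with none before them, with differences of 1.74 ± 0.30 (adjusted p = 0.000683) and 1.86 ± 0.30 (adjusted p = 0.000305). Itga4 passed the filter only through its 48 and 72 h arrays. Of its 4 other probe sets, all below the filter, 1 moved with it (0.92 and 1.03) and 3 lay between -0.25 and 0.05. Of 8 neural crest markers, 6 were tested, of which 3 were higher and 1 lower at 48 h and 4 higher and 1 lower at 72 h. Over all genes tested the shares were 22.6% higher and 14% lower at 48 h, and 25.3% and 18.6% at 72 h. Sox10, a defining marker of neural crest cells, did not pass the filter (12.1 to 38.0 at 48 and 72 h, against 18.1 to 51.9 in uninduced cells). The part of such cells in the change of Itga4 was not tested.

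Itgb7, a beta chain that pairs with alpha-4 and with the alpha-E chain, fell. It gave 108, 70.2 and 114 in uninduced cells, 89.0, 43.1 and 27.7 at 24 h, 14.0, 11.3 and 3.18 at 48 h, and 35.4, 9.97 and 8.46 at 72 h. Arrays at 48 and 72 h lay below every uninduced array, with differences of -2.16 ± 0.36 (adjusted p = 0.000626) and -1.80 ± 0.36 (adjusted p = 0.00158), kept in every alternative in which the gene was tested. Itgae, the alpha-E chain, whose known ligand is E-cadherin, gave 32.3, 11.99 and 16.9 at 72 h against 47.2, 77.9 and 62.9 in uninduced cells. It was lower at 72 h alone (-1.13 ± 0.24, adjusted p = 0.00221). Its other probe set differed by -0.37 there. These genes are best known from leukocytes, and the 8 leukocyte markers had summed signals of 467 to 505 at 72 h, against 785 to 1781 in uninduced cells. Ptprc, the defining one, was at 1.18 to 11.04 on all 12 arrays, and of the 4 tested at 72 h Cd68 and Laptm5 were lower (-2.39 and -2.50) and Coro1a was higher (1.71). The part of such cells in these changes was not tested.

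Of the other receptors, Itga6 and Itga5 fell and Itga9 rose at 72 h. Itga6, a laminin receptor chain long used as a surface marker of stem cells, gave 846, 1123 and 899 in uninduced cells, 547, 1237 and 991 at 24 h, 457, 514 and 677 at 48 h, and 344, 398 and 551 at 72 h. All arrays at 48 and 72 h lay below the uninduced ones, and the 72 h difference of -1.14 ± 0.30 (adjusted p = 0.00883) was called in every alternative, with -0.79 ± 0.30 at 48 h (adjusted p = 0.0586). Its second bright probe set gave -1.05 at 48 h and -1.54 at 72 h. Itga5, the main fibronectin receptor chain, was at 27.9, 39.7 and 31.5 at 72 h against 77.9, 99.6 and 68.7 in uninduced cells (-0.99 ± 0.36, adjusted p = 0.0404), a call lost without any 1 of those 6 arrays (adjusted p 0.0605 to 0.122). Itga9, a receptor chain for tenascin and related ligands, was at 98.1, 90.0 and 71.1 at 72 h against 52.0, 55.9 and 44.1 in uninduced cells (0.62 ± 0.23, adjusted p = 0.043). It was the 1 called member with another probe set above the filter that moved the opposite way (-0.21), and its call was lost in 13 of 23 alternatives.

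Itga10, a collagen receptor chain, was the only integrin called at 24 h. It gave 83.5, 60.2 and 28.4 at 24 h against 16.4, 18.5 and 11.9 in uninduced cells (1.14 ± 0.29, adjusted p = 0.0245), and it returned to 13.9 to 28.3 at 48 and 72 h. The call was lost without the second 24 h array or the first or the third uninduced array (adjusted p 0.0636 to 0.0862). Itga10 passed the filter only through its 24 h arrays. Itgb1, the beta chain that most of these alpha chains need, was not called, although it lay above the uninduced range on all 6 later arrays. It gave 411, 371 and 474 in uninduced cells, 70.1, 403 and 663 at 24 h, 736, 588 and 1327 at 48 h, and 705, 685 and 1052 at 72 h. The differences were 0.97 ± 0.58 at 48 h (adjusted p = 0.216) and 0.91 ± 0.58 at 72 h (adjusted p = 0.228). Without the first 24 h array, which held its lowest signal, the same differences had adjusted p of 0.00819 and 0.0104.

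Itgb4, the beta chain that pairs with alpha-6 in hemidesmosomes, gave 7.47, 15.7 and 4.88 at 72 h against 25.5, 28.9 and 56.0 in uninduced cells. The groups did not overlap, and the difference of -1.04 ± 0.40 had an adjusted p of 0.053, or 0.00358 without the first 24 h array, where Itgb4 stood at 169. Itga3, another laminin receptor chain, gave 805, 279.6 and 235 at 24 h against 187, 187 and 166 in uninduced cells (1.01 ± 0.36, adjusted p = 0.0957), with 143 to 206 at 48 and 72 h. Its 2 other probe sets above the array median gave -0.77 and -0.39 at 48 h and -1.06 and -0.81 at 72 h, where the reported one gave 0.13 and -0.02. Itga8, a partner of beta-1 that binds nephronectin, gave 78.2, 58.7 and 87.6 at 48 h against 23.6, 46.5 and 34.3 in uninduced cells (0.85 ± 0.37, adjusted p = 0.0872). Without the first 24 h array Itga8 was called higher at 24 and 48 h (0.98 and 0.85). Itga2b, known from platelets, differed by -0.06, -0.05 and -0.23 at the 3 times and was not called, although quantile normalization gave a call at 72 h (-0.66, adjusted p = 0.0492).

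**Figure D4:**
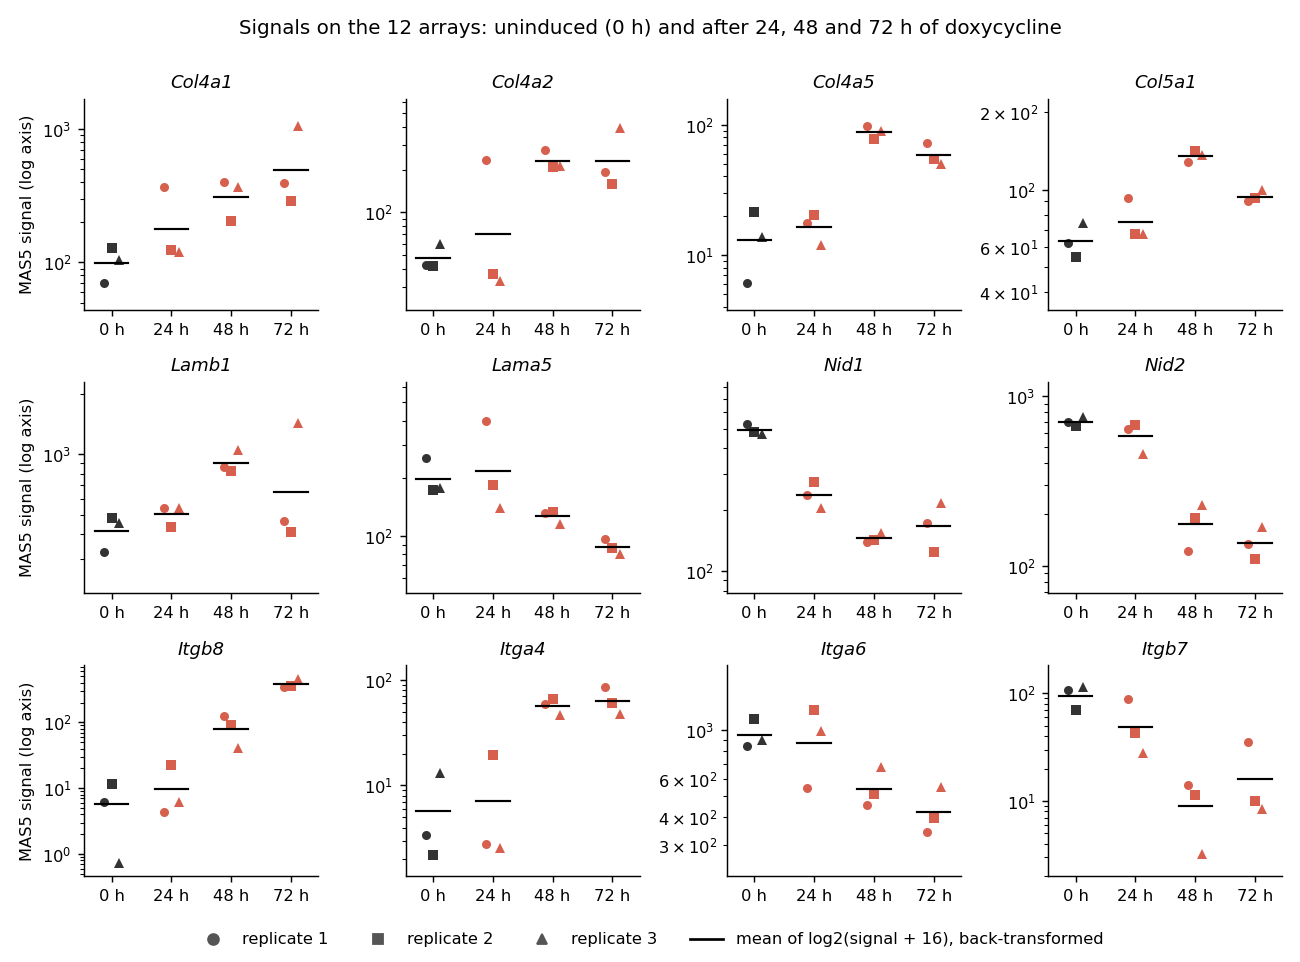
MAS5 signals (log axes, 1 point per array) of 12 members in uninduced cells (black, 0 h) and after 24, 48 and 72 h of doxycycline (red), with bars at the mean of log2(signal + 16) turned back to signal. Itgb8 and Itga4 lie under 25 on all uninduced and 24 h arrays and reach 342 to 458 and 47.6 to 85.3 at 72 h. Nid1 and Nid2 are lower on every 48 and 72 h array than on any uninduced array.

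Promoter sequence was examined because Neurog1 belongs to the factors that bind E-boxes, the letters CANNTG, which read the same on both strands. Windows were taken from RefSeq (GRCm38.p6) and searched over the 250 bases before the start site. Of the 80 members 57 had a window, including 21 of the 26 called ones. An E-box stood in 9 of the 17 windows of members called higher, in 4 of the 5 windows of members called lower, and in 66.2% of all 32851 windows. The form CAGATG stood in 2 of the 17 and 1 of the 5, and in 14.4% of all windows. The sequences of the largest rise, of Itga4 and of the earliest fall are given below, 5′ to 3′ on the gene's strand with E-boxes in capitals. They lie at chr12:119238277-119238526 (minus strand) for Itgb8, chr2:79255176-79255425 (plus strand) for Itga4 and chr13:13437352-13437601 (plus strand) for Nid1.
Itgb8: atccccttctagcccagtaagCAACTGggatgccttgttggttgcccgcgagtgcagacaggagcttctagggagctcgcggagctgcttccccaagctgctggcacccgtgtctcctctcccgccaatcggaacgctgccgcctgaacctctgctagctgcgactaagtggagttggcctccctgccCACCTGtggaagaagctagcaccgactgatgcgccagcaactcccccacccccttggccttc
Itga4: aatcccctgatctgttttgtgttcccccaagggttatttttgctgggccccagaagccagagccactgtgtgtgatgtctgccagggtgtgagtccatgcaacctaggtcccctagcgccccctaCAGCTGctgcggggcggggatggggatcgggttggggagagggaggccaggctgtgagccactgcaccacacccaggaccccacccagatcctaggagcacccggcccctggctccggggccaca
Nid1: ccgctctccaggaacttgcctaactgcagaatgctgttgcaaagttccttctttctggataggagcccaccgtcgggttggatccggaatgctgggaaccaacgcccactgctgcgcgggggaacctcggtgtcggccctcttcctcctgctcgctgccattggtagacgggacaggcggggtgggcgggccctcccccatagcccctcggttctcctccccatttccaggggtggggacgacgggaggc
The Itgb8 stretch holds 2 E-boxes of different letters, the Itga4 stretch holds 1, and the Nid1 stretch holds none. The form in the Itga4 stretch, CAGCTG, stood in 3 of the 17 windows of members called higher and in 13% of all windows. No binding was measured in these cells.

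From 24 to 48 h, 9 of 43 were called, 6 higher and 3 lower, or 20.9%, against 17.8% of all genes (10.3% higher and 7.55% lower). Higher were Itgb8 (1.89 ± 0.35, adjusted p = 0.00281), Col4a5 (1.68 ± 0.23, adjusted p = 0.000483), Itga4 (1.65 ± 0.30, adjusted p = 0.00238), Col15a1 (1.38), Col11a1 (0.96) and Col5a1 (0.73). Lower were Nid2 (-1.64 ± 0.26, adjusted p = 0.00114), Itgb7 (-1.37) and Itga10 (-0.93). The calls of Itgb8, Col4a5, Itga4 and Nid2 were kept in every alternative in which they were tested, whereas that of Itga10 was lost in 17 of 23. Col11a1 lost its call without any 1 of the 48 h arrays (adjusted p 0.0515 to 0.076), Col5a1 without any 1 of them or the second or the third 24 h array (0.0554 to 0.0869), Col15a1 without the first or the second 48 h array (0.0508 and 0.0573), and Itgb7 without the second or the third (adjusted p = 0.052 and 0.0832). The count was 15 without the first 24 h array, and 5, 4 and 5 without the first, the second and the third 48 h array.

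From 48 to 72 h Itgb8 alone was called, higher by 2.05 ± 0.35 (adjusted p = 0.0159), or 2.33% of the members, against 0.796% of all genes (0.644% higher and 0.152% lower). All 3 of its 72 h arrays lay above its 3 arrays of 48 h. The call was lost without the third 48 h array (adjusted p = 0.0735) or without any 1 of the 72 h arrays (adjusted p 0.0582 to 0.0727), when 0 members were called. Without the first 24 h array 2 were called, the other being Fn1, which was lower (-1.003, adjusted p = 0.0457). With array weights 15 members were called, 2 higher and 13 lower.

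The 37 members below the filter had signals of 0.266 to 75.02, with a median over genes of 11.04 for the gene's median over the 12 arrays. They were 23 collagens, 5 laminins and 9 integrins. Among them were Col1a1, Col3a1 and Col6a1, Lama2 and Lama4, and Itga1, Itga2, Itga7, Itgb2, Itgb3 and Itgb6. Without the third 72 h array 3 of them were tested and called higher at 72 h, namely Col26a1 (1.38, adjusted p = 0.0253), Col3a1 (1.37, adjusted p = 0.00625) and Itga7 (0.98, adjusted p = 0.0443). Col3a1 gave 50.4, 64.2 and 0.666 at 72 h, against 8.84, 15.95 and 12.6 in uninduced cells. Col26a1 gave 48.7, 51.4 and 14.2 at 72 h, against 34.5, 1.43 and 2.51 in uninduced cells. In both genes the third 72 h array fell within or below the uninduced values. Other settings called some of the 37 lower. Without the first 24 h array Itga1 was called lower at 72 h (-0.85, adjusted p = 0.0153) and Itgam higher at 24 and 48 h (1.27 and 1.05). With no filter Lama3 was called lower at 72 h, and Itgal and Itgax lower and Itgam higher at 48 h.

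Other probe sets of the same genes could be set beside 22 of the 37 calls made against uninduced cells, in 17 members, where at least 1 more probe set exceeded the array median. For 21 of the 22 every such probe set differed in the same direction as the one reported, and the exception was Itga9.

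Companion genes of the same biology were counted from the same test. Over all genes tested the shares were 8.12% higher and 3.18% lower at 24 h, 22.6% and 14% at 48 h, and 25.3% and 18.6% at 72 h. Whether any list differed from all genes was not tested. Of 21 tested glycoproteins and proteoglycans of the matrix, 2 were higher and 0 lower at 24 h, 14 and 0 at 48 h, and 15 and 1 at 72 h. The largest rises were Reln, a secreted guide of migrating neurons (4.07 ± 0.37 at 72 h, adjusted p = 3.45e-06), Spock1 (3.16) and the microfibril protein Fbn2 (2.39), and Hspg2, the basement membrane proteoglycan perlecan, was the one that fell (-0.70, adjusted p = 0.0429). Their median was 1.33 at 48 h and 1.38 at 72 h.

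Of 20 tested collagen-processing genes, 1 was higher and 1 lower at 24 h, 7 and 2 at 48 h, and 6 and 4 at 72 h. These were 10%, 45% and 50% of the list, near the 11.3%, 36.6% and 43.9% of all genes tested. Serpinh1, the collagen chaperone HSP47, rose by 3.17 ± 0.44 at 24 h (adjusted p = 0.000736) and was still higher by 2.58 at 72 h. Bmp1, the procollagen C-proteinase, and the collagen prolyl 3-hydroxylase P3h2 were higher by 2.47 and 2.08 at 72 h, whereas Pcolce, the enhancer of that proteinase, and its relative Pcolce2 were lower by 4.30 and 2.49 on the log2 scale (-4.30 and -2.49).

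Of 14 tested matrix receptors that are not integrins, 7 were higher and 2 lower at both 48 and 72 h. They were led by the glypicans Gpc2 and Gpc6 (3.53 and 3.37 at 72 h) and Cd47 (2.89), while Bcam, a receptor for the laminin alpha-5 chain, was lower (-2.59, adjusted p = 0.000318). Of 21 tested adaptors of integrin adhesions, 4 were higher and 5 lower at 72 h, beside 25.3% and 18.6% of all genes tested. Among the adaptors Tgfb1i1 (2.26) and Parva (1.46) were higher and Tns3 (-2.75), Parvb (-1.82) and Ptk2b (-1.68) lower. Of 22 tested proteases and inhibitors, 10 were higher and 4 lower at 72 h, with Plat, the tissue plasminogen activator (3.07), and the matrix protease Adamts5 (2.76) higher and the inhibitor Timp1 lower (-2.53). At 24 h these 3 lists had 1 higher and 0 lower, 1 and 3, and 4 and 1.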

How the data were processed

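RNA of 12 samples was hybridised as biotinylated cRNA to Affymetrix arrays. Values are the intensity the authors deposited, MAS5 signals per the submitters' processing notes; the sources used here do not give the MAS5 version or settings. The 2% trimmed mean was 150 on each array. No array files were identical.

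Of 45101 probe sets, 64 controls were left out, and the platform annotation gave 34945 a single symbol, 932 several and 9160 none; 34741 were matched to RefSeq by Entrez ID, which changed 0 symbols. Each gene was represented by the probe set of highest mean log2(signal + 16.0). Genes were tested if above the array median (percentile 50) on all 3 arrays of a group. A gene could thus pass only through groups in which it was high. Among those that did were Col4a5, Col5a2, Col9a1, Col15a1, Itga4, Itga10 and Itgb8. For such genes filter and call were not independent. With no filter the calls of the genes just named against uninduced cells were kept. One model over the 4 groups (R 4.3.3, limma 3.58.1, lmFit and eBayes with trend) gave 5 comparisons, with Benjamini-Hochberg adjustment over all genes tested and a threshold of 0.05; it was tested on simulated data. Adjusted p-values throughout are from limma.

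Members, marker lists and companion lists were chosen with earlier results of these data known. Named were the called members, their partner chains, and up to 3 rises and 3 falls of a companion list. Further members that were not called were named too, some of which other settings had called, as were genes of the marker lists. The labels do not say that a replicate number marks a shared culture, so p-values measure the spread between these samples, and the number of arrays limits the precision. Same-numbered arrays were not treated as pairs. Alternatives were 2 other pseudocounts (1 and 64), no filter, percentile 75, quantile normalization, the mean of all probe sets, 6 arrays alone, array weights, a replicate block and leaving out each array. A further 3, chosen after seeing the data, left out 2 or 4 arrays or took a filter on any 3 arrays. Promoter windows were RefSeq's (GRCm38.p6), and the arrays name no build.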

Additional observations from a re-analysis of the deposited data

How the results depend on the processing

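The members called at 24, 48 and 72 h against uninduced cells, from 24 to 48 h and from 48 to 72 h numbered 3, 15, 19, 9 and 1. A pseudocount of 1 left 0 called from 48 to 72 h. The filter at percentile 75, with 16 members tested, gave 1, 7 and 8 against uninduced cells and 2 from 24 to 48 h. Fits of the 6 arrays compared gave 1 at 24 h and 25 at 48 h. Array weights gave 28 at 48 h, 30 at 72 h and 15 from 48 to 72 h, of which 13 were lower. With the first 24 h and the third 72 h arrays both left out the counts were 10, 29, 30, 18 and 4. With the 4 arrays numbered 3 left out, they were 1 at 24 h, 5 from 24 to 48 h and 0 from 48 to 72 h. Leaving out 1 array gave 1 to 8, 12 to 25, 12 to 25, 4 to 15 and 0 to 2. The filter on any 3 arrays tested 53 members and called 3, 17, 19, 8 and 1. A replicate block gave 3, 17, 19, 11 and 1, with Itga6 (adjusted p = 0.0258) and Col6a2 (0.0402) now called at 48 h and Col1a2 (0.0365) at 72 h; same-numbered arrays' deviations correlated at 0.031 to 0.577, 2 of 18 such pairs were at or below 0.1, and 11 of 12 arrays correlated best with one of their own number, a hint from the data and not from the design. The causes of these shifts were not tested. Of 47 calls of a member in a comparison, 22, in 11 members, were kept wherever tested, 25 were lost in at least 1 alternative, 16 in 5 or more, and 0 changed direction. Signals near the array median limit what can be called among dim genes.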

Other observations

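Markers of other cell types gave values beside those above. Of the fibroblast and feeder list, 7 of 16 genes were tested, and its summed signal was 6228 to 8872 at 72 h, against 2448 to 3511 in uninduced cells. At 72 h 4 of the 16 exceeded the array median on every array, and in uninduced cells also 4. The sum follows its brightest genes and does not show a rise of the list in general. Endothelial markers summed to 120 to 136 at 72 h, against 288 to 489 in uninduced cells. The 7 chondrocyte markers summed to 81.9 to 103 at 72 h, against 69.7 to 150 in uninduced cells, beside the rises of Col9a1, Col11a1 and Col27a1, and 1 of them was tested.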
